A study of Mus musculus with 2 samples.

Results

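Abundant noncoding RNAs and noncoding hosts of small nucleolar RNAs (snoRNAs), 9 genes in all, were followed in regulatory T (Treg) cells of injured mouse muscle: Malat1, Neat1, the ribosomal RNA precursor Rn45s, and the hosts Gas5, Snhg1, Snhg5, Snhg6, Snhg8 and Snhg12. They are 9 of the 23337 gene symbols in the deposited count table, taken by name, and all 9 passed the floor of 5 CPM (counts per 1000000 counted) in at least 1 library. The list was chosen by its CPM values in the same 2 libraries, which were known when it was drawn up, so the differences between the libraries given here are a description and carry no test. Both groups were 8-week-old male mice of the genetic background Foxp3-IRES-GFP/C57BL/6, in which green fluorescent protein reports Foxp3. In both, 3 hindlimb muscles (tibialis anterior, quadriceps and gastrocnemius) were injured by injection of cardiotoxin, a venom protein that destroys muscle fibres. The IL-33 group also received 0.3 ug of recombinant IL-33 (rIL-33), a cytokine released by damaged tissue, into the muscle, and the control group received PBS. Treg cells were taken 4 days after injury, 5000 per library, sorted in 2 passes. Each group held 1 library, the number of mice behind each is not given in the sources used here, and "higher" and "lower" therefore compare 2 libraries and not the treatments.

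Malat1 and Neat1 are long RNAs that stay in the nucleus, Malat1 in the speckles that hold splicing factors and Neat1 as the scaffold of paraspeckles. Malat1 and the long form of Neat1 do not end in an ordinary poly(A) tail, as the short form of Neat1 does: RNase P cuts the RNA in front of a tRNA-like element, and the new end is sealed by a triple helix between U-rich stretches and a genome-encoded A-rich tract. Rn45s is the long precursor of the ribosomal RNAs, made by RNA polymerase I in the nucleolus. As it contains the sequences of the mature ribosomal RNAs, counts under this symbol cannot be assigned to the precursor alone. Gas5 and the Snhg genes are spliced hosts whose introns release snoRNAs, which guide 2′-O-methylation (C/D box class) or pseudouridylation (H/ACA box class) of ribosomal and other RNAs. The spliced host RNA is itself known to be short-lived, being degraded by nonsense-mediated decay when translated.

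The ends of Malat1 and Neat1 are shown because the libraries were made from poly(A) RNA and the A stretches here are encoded in the gene. Sequences are from GENCODE M21 transcripts (GRCm38), 5′ to 3′, with runs of 4 or more A in capitals. The Malat1 stretch covers positions 6596 to 6691 of its 6983 nt transcript (chr19:5795982-5796077, minus strand), and the Neat1 stretch is the last 90 nt of the 20771 nt transcript (chr19:5824708-5824797, minus strand).
Malat1: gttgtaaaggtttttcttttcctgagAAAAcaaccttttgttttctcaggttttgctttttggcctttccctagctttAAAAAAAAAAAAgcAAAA
Neat1: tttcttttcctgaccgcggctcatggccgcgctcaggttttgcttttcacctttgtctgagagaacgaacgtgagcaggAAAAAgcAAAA
The longest A run of the Malat1 transcript, 12 nt, lies in this stretch at positions 6674 to 6685. The next base after the stretch, position 6692, is the first base of mascRNA, the tRNA-like product that RefSeq places at 5795924 to 5795981 of chromosome 19. A run of 12 or more A was present in 4.28% of the 134529 annotated transcripts of at least 200 nt. In the long Neat1 transcript the longest A run was 7 nt, and in the 3004 nt short transcript it was 5 nt. Rn45s had no entry in the annotation.

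The 6 host genes held 25 separate snoRNA positions in GENCODE M21, from 1 each in Snhg6 and Snhg8 to 9 in Gas5, with 8 in Snhg1, 4 in Snhg12 and 2 in Snhg5. Shown are the snoRNAs of Snhg5 and Snhg6, the hosts whose levels differed most beyond counting error, and that of Snhg8 as an H/ACA example. Capitals mark the C box (A or G, then TGATGA, searched in the first 25 nt) and the D box (CTGA, in the last 20 nt) of C/D snoRNAs, and the ACA near the end of the H/ACA snoRNA.
Snord50a (in Snhg5, chr9:88521529-88521600, minus strand): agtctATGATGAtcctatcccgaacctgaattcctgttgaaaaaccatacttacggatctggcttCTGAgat
Snord50b (in Snhg5, chr9:88521797-88521868, minus strand): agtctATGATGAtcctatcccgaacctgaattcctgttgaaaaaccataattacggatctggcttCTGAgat
Snord87 (in Snhg6, chr1:9942463-9942549, minus strand): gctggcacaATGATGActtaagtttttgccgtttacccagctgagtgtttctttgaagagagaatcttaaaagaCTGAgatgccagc
Snora24 (in Snhg8, chr3:123507937-123508066, minus strand): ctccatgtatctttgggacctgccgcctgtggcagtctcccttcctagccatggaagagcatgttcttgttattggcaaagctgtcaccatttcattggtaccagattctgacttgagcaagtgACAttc
The pair in Snhg5 matched at 71 of 72 positions and differed by C50A, counted from 1 at the 5′ end with the Snord50a base first. Of the 27 annotated snoRNA models in the hosts (overlapping models of 1 snoRNA included), 17 had both boxes under this search. All snoRNAs of Gas5, Snhg5, Snhg6 and Snhg8 lay outside the exons of spliced transcripts, while 2 of those in Snhg1 and all of those in Snhg12 overlapped an exon of some annotated transcript.

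**Figure D1:**
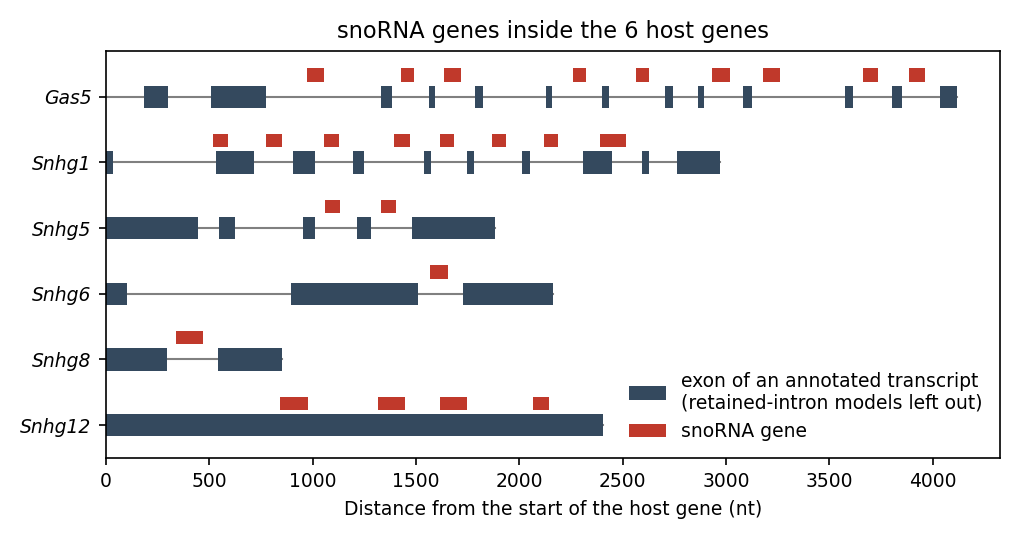
Positions of exons (dark bars, retained-intron models left out) and snoRNA genes (red bars) along the 6 host genes, in nt from the start of each host gene. Gas5 carries 9 snoRNA positions and Snhg1 carries 8, while Snhg6 and Snhg8 carry 1 each; in Snhg12 the exons of its 10 annotated transcripts together cover the whole gene.

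Transcripts of ribosomal protein genes and of many snoRNA hosts begin with a C followed by a run of pyrimidines, the terminal oligopyrimidine motif through which their translation is tied to growth signals. The start regions of the hosts are shown for this feature, which the choice of genes did not use. They are RefSeq promoter entries (GRCm38.p6), 25 nt before to 25 nt from the annotated start on, with capitals marking a C followed by at least 4 pyrimidines (C or T) that begins within 10 nt of the start, on the gene's own strand.
Gas5 (chr1:161035141-161035190, plus strand): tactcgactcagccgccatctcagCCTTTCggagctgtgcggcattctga
Snhg8 (chr3:123508312-123508361, minus strand): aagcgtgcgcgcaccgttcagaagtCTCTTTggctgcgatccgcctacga
Snhg12 (chr4:132308653-132308702, plus strand): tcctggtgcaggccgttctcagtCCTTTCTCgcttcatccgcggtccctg
Snhg5 (chr9:88522873-88522922, minus strand): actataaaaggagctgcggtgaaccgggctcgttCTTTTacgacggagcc
Snhg1 (chr19:8723462-8723511, plus strand): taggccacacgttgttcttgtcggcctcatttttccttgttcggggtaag
A match was present for 4 of the 5 hosts with an entry, against 34.4% of all 27025 genes with an entry and 40 of 64 cytosolic ribosomal protein genes. Gas5 has a further annotated start without a match, Snhg1 had none at its start, and Malat1 had none. Neat1, Rn45s and Snhg6 had no entry.

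The libraries held 4080791 counts (IL-33) and 1573707 counts (PBS), so that a single count was worth 0.245 CPM (IL-33) or 0.635 CPM (PBS). A count of 0 allows up to 3 counts, which is 0.735 and 1.91 CPM. The protocol names no molecular identifiers, and every interval given here (95%) covers counting error only. Treg markers were abundant in both libraries (a summed level over 8 genes of 12441 CPM with IL-33 and 12472 CPM with PBS), although Foxp3 itself had 40 counts and 1 count. Markers of cell types other than T cells summed to no more than 66.1 CPM per list. The fibroblast list differed most in level, with 0 counts after IL-33 and 66.1 CPM after PBS, where Col3a1 had 78 counts and Dcn 24 while Col1a1, Col1a2 and Lum were at 0. Monocyte and macrophage markers summed to 35.8 and 49.6 CPM, Cd68 being at 0 in both libraries and C1qa at 1 count in each. Endothelial markers summed to 49.3 and 52.1 CPM, B cell markers to 32.3 and 26.7 CPM, and CD8 T and NK cell markers to 22.3 and 15.9 CPM. Neutrophil markers summed to 4.41 and 5.72 CPM, muscle markers to 0.490 and 2.54 CPM, and erythroid markers to 0 counts and 8.90 CPM.

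Malat1 had the most counts of any symbol in either library, and Malat1 with Rn45s made up nearly all counts of the 9 genes. Malat1 (chromosome 19, 5795690 to 5802672, minus strand; a lincRNA gene) had 220764 (IL-33) and 68737 (PBS) counts, or 54098 and 43678 CPM. It was highest of all 23337 symbols in both, and it held 92.1% (IL-33) and 90.8% (PBS) of the counts of the 1492 symbols that GENCODE types as long noncoding. The remaining long noncoding genes together took 0.464% and 0.444% of the library totals, a ratio of 1.05 (1.02 to 1.08). The next of them by mean level was AW112010, at 1202 and 647 CPM, followed by Kcnq1ot1 at 398 and 346 CPM. Both were named here after their values were seen. AW112010 alone gave 4906 of the 18950 counts (IL-33) and 1018 of the 6980 counts (PBS) behind the ratio of 1.05. That ratio therefore does not stand for the remaining long noncoding genes in general, and it was not computed without AW112010.

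With IL-33, Malat1 stood at 1.24 times its PBS level (counting interval 1.23 to 1.25), and Rn45s at 1.5 times (1.45 to 1.54), from 5324 CPM against 3558 CPM. Rn45s ranked 11th of all symbols in the IL-33 library and 14th in the PBS library. Precursor and mature ribosomal RNA cannot be told apart in these counts. The excess of Rn45s over Malat1 does not depend on how the libraries are scaled: per Malat1 count, there were 0.0984 Rn45s counts with IL-33 and 0.0815 with PBS, a ratio of 1.21 (1.17 to 1.25). Both genes lay within 2-fold, while 4 of the 130 genes whose mean reached 1000 CPM were past it (3.08%). Among those 130 genes the log2 difference had an SD of 0.48, against 0.31 for Malat1 and 0.58 for Rn45s.

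Neat1 (chromosome 19, 5824708 to 5845478, minus strand; a lincRNA gene) had 184 (IL-33) and 83 (PBS) counts, or 45.1 and 52.7 CPM. Its ratio of 0.855 (0.656 to 1.12) held 1 within counting error. Malat1 and Neat1, which are neighbours on the chromosome, stood in different proportions in the 2 libraries. Neat1 counts per Malat1 count were lower in the IL-33 library, at 0.690 times the PBS value (0.530 to 0.906). Malat1 itself stood at 1.24 in CPM, so genes at equal CPM are also lower per Malat1 count. Per Gas5 count, Neat1 was at 0.861 times the PBS value (0.630 to 1.18), which holds 1.

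**Figure D2:**
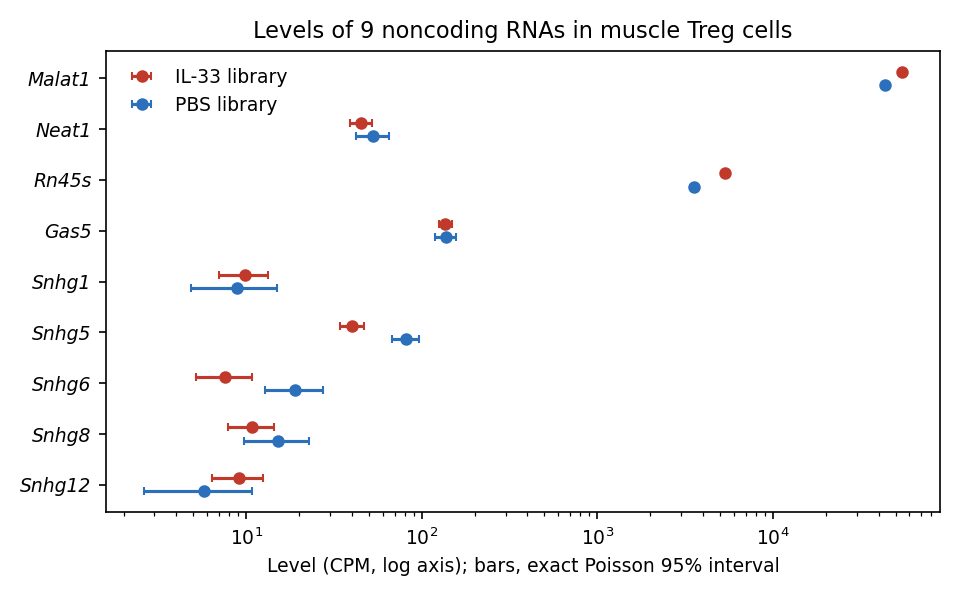
Levels of the 9 noncoding RNAs in CPM (horizontal log axis) in the IL-33 library (red) and the PBS library (blue), with exact Poisson 95% intervals as bars. Malat1 and Rn45s lie at 3558 CPM or more in both libraries and the other 7 at 137 CPM or less. The intervals of Malat1, Rn45s, Snhg5 and Snhg6 do not overlap between the libraries. They cover counting error only, and the share of all genes compared for which this holds was not computed.

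The hosts did not share a direction. Gas5, the host with the highest CPM (chromosome 1, 161034422 to 161038539, plus strand; processed transcript), had 556 and 216 counts, which are 136 CPM (IL-33) and 137 CPM (PBS). Its ratio was 0.993 (0.847 to 1.17). Among the 1914 genes with a mean from 100 to under 1000 CPM, where Gas5 lies, 5.17% were past 2-fold. Per Malat1 count, Gas5 was lower with IL-33, at 0.801 times the PBS value (0.684 to 0.942). Malat1 itself stood at 1.24 in CPM, so a gene at near-equal CPM such as Gas5 is lower per Malat1 count.

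Snhg5 (chromosome 9, 88521050 to 88522929, minus strand; processed transcript), host of the near-identical Snord50 pair printed above, was lower in the IL-33 library, with 164 counts against 128, or 40.2 CPM against 81.3 CPM. The ratio was 0.494 (0.390 to 0.628). On the log2(CPM + 1) scale used for calls it lay just inside 2-fold and was not called, and without the pseudocount it lay just outside.

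Snhg6 (chromosome 1, 9941959 to 9944118, minus strand; lincRNA), host of Snord87, was the only member past 2-fold, with 31 counts against 30, or 7.60 CPM against 19.1 CPM. Its ratio was 0.398 (0.233 to 0.681) and its log2 difference -1.22.

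Of all 9005 genes compared, 31.8% were past 2-fold in either direction and 16.3% were lower with IL-33 by 2-fold or more, against 1 of the 9 members. The share past 2-fold was larger among thinly counted genes. Among the 3545 genes with a mean of 20 to under 100 CPM, where Snhg5 and Neat1 lie, 23.3% were past 2-fold. Among the 2738 with a mean of 5 to under 20 CPM, where Snhg1, Snhg6, Snhg8 and Snhg12 lie, 49.5% were. The summed level of fibroblast markers was also lower in the IL-33 library, from 66.1 CPM to 0 counts. The summed level of monocyte and macrophage markers was lower mainly through Lyz2 (19.1 CPM with IL-33 against 38.8 CPM). Of the same list, Ly6c2 (9.80 against 6.99 CPM), Mrc1 (17 counts against 0) and C1qb (4 against 1) were higher. The part of these markers in the values of Snhg5 and Snhg6 was not tested. Fewer cells with an RNA and less RNA per cell cannot be told apart in such sorted pools.

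In CPM, the other hosts differed by no more than counting error allows. Snhg8 (chromosome 3, 123507552 to 123508404, minus strand, processed transcript), host of the H/ACA snoRNA Snora24, had 44 and 24 counts, or 10.8 and 15.3 CPM. Its ratio was 0.707 (0.421 to 1.22). Snhg1 (chromosome 19, 8723475 to 8726443, plus strand; processed transcript), host of Snord22 and of 7 further snoRNAs, had 40 and 14 counts, or 9.80 and 8.90 CPM, a ratio of 1.10 (0.587 to 2.19). Snhg12 (chromosome 4, 132308623 to 132311024, plus strand; lincRNA), which carries Snora16a, Snora44, Snora61 and Snord99, had 37 and 9 counts, or 9.07 and 5.72 CPM, a ratio of 1.59 (0.751 to 3.74). For these 3 genes the depth could not show a difference of the size seen.

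Summed over all 6 hosts, the level was 214 CPM with IL-33 and 268 CPM with PBS, a ratio of 0.799 (0.710 to 0.899). Over the 5 Snhg genes it was 77.4 CPM with IL-33 and 130.3 CPM with PBS, a ratio of 0.594 (0.497 to 0.712). Snhg5 alone gave 164 of the 316 counts and 128 of the 205 counts behind the latter sums. Without Snhg5 and Snhg6 the remaining Snhg genes had 121 and 47 counts, a ratio of 0.993 (0.703 to 1.42). Over all 9 members the median log2 difference was -0.01, against -0.08 over all genes compared, with 4 members above 0 and 5 below. Scaling by trimmed mean of M-values (TMM) moved the median of all genes from -0.08 to 0.05. Under TMM the ratio of Gas5 changed side, from 0.993 to 1.08, and those of the other 8 members kept theirs.

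**Figure D3:**
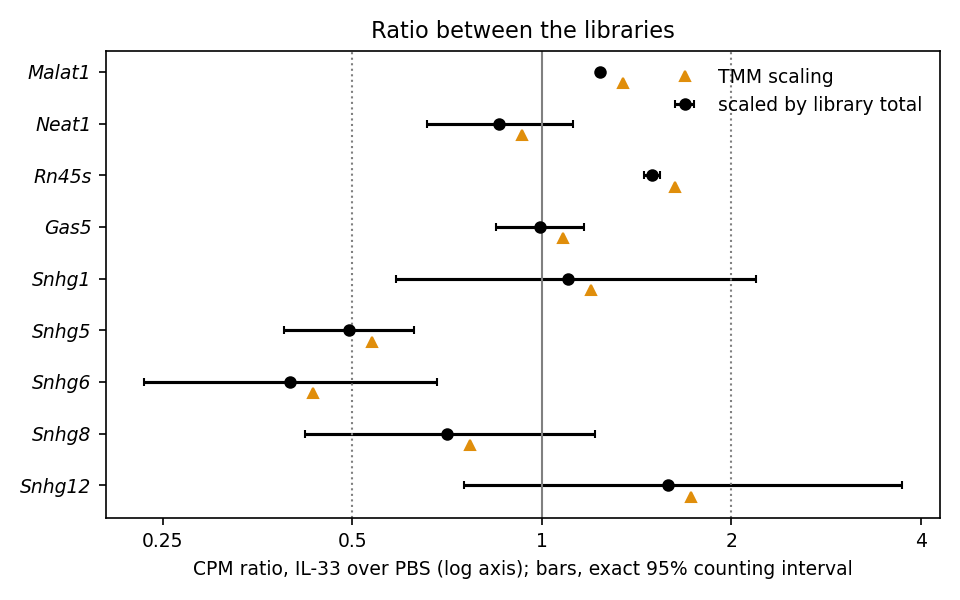
CPM ratio of the IL-33 over the PBS library for each of the 9 RNAs (log axis; black points with exact 95% counting intervals, dotted lines at 0.5 and 2), with the ratio under TMM scaling as orange triangles. Malat1 and Rn45s have intervals above 1, Snhg5 and Snhg6 have intervals below 1, and the intervals of the other 5 hold 1. How many of all genes compared have intervals that leave out 1 was not counted.

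**Figure D4:**
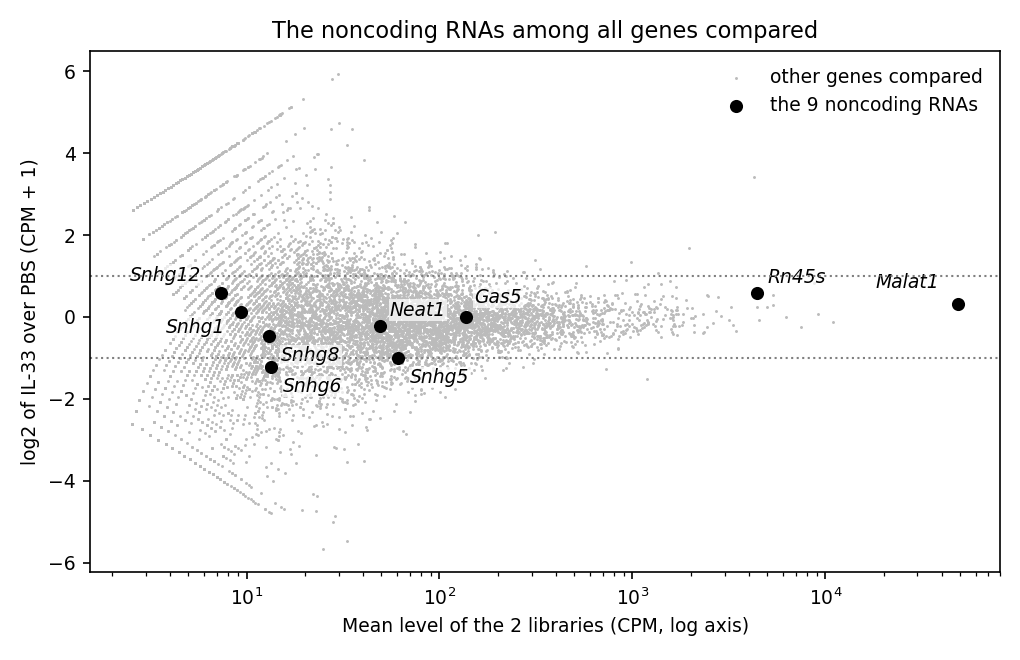
Log2 difference (IL-33 over PBS, CPM + 1) against the mean CPM of both libraries (log axis) for the 9005 genes compared (grey) and the 9 noncoding RNAs (black, named); dotted lines mark 2-fold. The thinly counted Snhg genes lie where the grey points spread widest, and Snhg6 at -1.22 is the only named gene past 2-fold.

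Levels of different RNAs are comparable only per length, and Rn45s was left out here for want of an annotated length. Per kilobase of annotated exon, the order in the IL-33 library was Malat1 (7747 CPM per kilobase), Gas5 (36.2), Snhg5 (23.2), Snhg8 (12.6), Snhg6 (6.63), Snhg12 (3.77), Snhg1 (3.30) and Neat1 (2.17). Of these neighbours, Snhg12 and Snhg1 did not differ beyond counting error (1.14-fold, 0.711 to 1.83). In the PBS library the order was Malat1 (6255), Snhg5 (47.0), Gas5 (36.5), Snhg8 (17.9), Snhg6 (16.6), Snhg1 (2.996), Neat1 (2.54) and Snhg12 (2.38). There Snhg8 and Snhg6 did not differ beyond counting error, nor did Snhg1, Neat1 and Snhg12 as neighbours. Gas5 and Snhg5 thus exchanged places, with Gas5 1.56-fold higher per kilobase (1.31 to 1.87) in the IL-33 library and Snhg5 1.29-fold higher (1.03 to 1.61) in the PBS library. That exchange rests on the length used: per kilobase of the median spliced transcript, a length chosen after seeing the data, Gas5 was above Snhg5 in both, at 271 against 51.5 and 273 against 104 CPM per kilobase. Malat1 exceeded the next RNA 214-fold (197 to 233) and 133-fold (112 to 159). The place of Neat1 rests on its 20771 nt transcript: over the 3004 nt transcript alone it would stand at 15.01 and 17.56 CPM per kilobase.

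Rows of mature snoRNAs were almost empty beside their hosts. Of 119 rows named Snord, Snora or Scarna, 18 had any count, none had more than 12, and they summed to 51 (IL-33) and 23 (PBS) counts (12.5 and 14.6 CPM). Of the 27 annotated snoRNA models inside the 6 hosts, only 10 had a row, and neither Snord50a nor Snord50b of Snhg5 had one. The others were therefore not measured. The 10 include both overlapping models of Snora16a, which share a row. They also include a Gas5 model listed under the microRNA symbol Mir5117, which had 0 counts in both libraries. Among those with a row, Snord22 had 5 counts in each library. Snord47 of Gas5 had 1 and 0, and Snord99 of Snhg12 had 0 and 1. Snord87, Snora24, Snora16a, Snora44 and Snora61 had 0. Other structural RNAs that end without a poly(A) tail, with Rn45s left aside, summed to 17.2 and 19.1 CPM, and 2 of the 8 in the table were over the floor. Of these 8, Rmrp, Terc, Rnu11 and Rnu73b were at 0, Rpph1 (the RNA of RNase P) had 5 and 0 counts, Rnu12 had 1 and 0, Vaultrc5 had 34 and 18, and Rn4.5s had 30 and 12. Histone genes of the replication-dependent clusters, whose mRNAs mostly lack poly(A) tails, summed to 62.7 and 90.2 CPM over 68 rows, a ratio of 0.695 (0.564 to 0.860). Of these rows 5 passed the floor, with 1 higher, 2 lower and 2 within 2-fold. The part of RNA without poly(A) tails in the values of Malat1 and Rn45s was not tested.

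Genes next to the members were read for shared starts and overlaps. The start of Slc3a2, which encodes the heavy chain of the CD98 amino acid transporter, lies 106 nt from that of Snhg1 on the opposite strand. Slc3a2 had 775 and 129 counts, 190 CPM against 82.0 CPM and a ratio of 2.32 (1.92 to 2.81), while Snhg1 stood at 1.10. Among genes with a mean from 100 to under 1000 CPM, where Slc3a2 lies, 5.17% were past 2-fold. Zbtb37 is a zinc finger gene that overlaps the start of Gas5 by 428 nt on the opposite strand. It had 84 counts (IL-33) against 0 (PBS), at least 10.8-fold higher when 3 counts are set for the 0. Its exact counting interval starts at 8.59-fold, while Gas5 stood at 0.993. Zbtb37 is thinly counted, in the range of 5 to under 20 CPM where 49.5% of genes were past 2-fold. The treatment of strand in the authors' counting is not given in the sources used here, so reads in that overlap could have gone to either gene. Snhg6 overlaps Mcmdc2 (listed under its older name 6030422M02Rik) by 127 nt, and that gene had 13 and 11 counts.

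Other snoRNA hosts also differed in both directions. Of 16 further noncoding hosts of small RNAs listed by name, 8 were in the table and 5 passed the floor, with a median log2 difference of 0.69. Snhg3 (13.97 and 8.26 CPM, ratio 1.69, 0.914 to 3.37) and Snhg11 (11.5 and 6.35 CPM, ratio 1.81, 0.904 to 4.02) held 1 within counting error. Snhg7, with 1 count against 21, had a ratio of 0.0184 (0.000444 to 0.114), and Mir17hg, host of the miR-17 cluster, had 17 against 26, a ratio of 0.252 (0.128 to 0.483). Snhg4, named after its values were seen, had 49 counts against 0, at least 6.30-fold higher when 3 counts are set for the 0, with an exact counting interval that starts at 4.93-fold. All 3 are thinly counted, in the range of levels where 49.5% of genes were past 2-fold.

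Protein-coding genes that hold a snoRNA on the same strand had a median log2 difference of 0.03. Of the 191 that passed the floor, 19 were past 2-fold on the higher side, 14 on the lower side and 158 on neither (17.3% past 2-fold). The share over all genes was 31.8% but fell with level, to 3.08% of genes with a mean of 1000 CPM or higher, and the levels of these hosts were not matched to it. The 4 with the highest CPM were Tpt1 (4818 and 4061 CPM, ratio 1.19), the chaperone gene Hspa8 (3097 and 3563 CPM, 0.869), Rpl17 (2142 and 2099 CPM, 1.02) and Rpl4 (2039 and 2072 CPM, 0.984). Gltscr2, a nucleolar factor, was higher at 2.24 (1.80 to 2.81), and Tsr1, a factor of small-subunit maturation, was lower at 0.286 (0.194 to 0.421). Also higher were Snx12 at 4.67, Rab3gap2 at 3.64, Trpc4ap at 3.39 and 5830418K08Rik at 2.16. Also lower were Rnf149 at 0.355, 2410002F23Rik at 0.418, the isoleucyl-tRNA synthetase gene Iars at 0.420, Chd3 at 0.448, Oxsr1 at 0.460 and Wdr43, also at 0.460. Noncoding genes that hold a snoRNA, among them the 6 hosts followed here, numbered 17 over the floor, with 4 higher, 3 lower and a median of -0.14 (0.04 under TMM, 0.11 with no floor). 2410006H16Rik was the next of these by level after Gas5, with a ratio of 2.14 (1.64 to 2.82) from 89.7 and 41.9 CPM. The list takes types from GENCODE M21 and so counts Cct6a, known as a chaperonin subunit gene, which stood at 0.576 (0.428 to 0.779).

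The proteins that work with these RNAs were described from lists of genes, each beside the median of -0.08 and the 31.8% past 2-fold of all genes compared, and a value at which a gene stood is its CPM ratio of IL-33 over PBS. Core proteins of snoRNPs, the particles that snoRNAs form, had a median of 0.14 over 9 genes, with 1 higher (Gar1, 47 counts against 1) and 1 lower (Rrp9, 0 against 9). Nop56, a C/D core protein and itself a snoRNA host, stood at 0.631 (0.562 to 0.710), from 186 and 294 CPM. Its partner Nop58 stood at 1.14 (1.005 to 1.30), Nhp2l1 at 0.820 and Dkc1, the pseudouridine synthase of H/ACA particles, at 0.697 (0.575 to 0.848). Assembly factors had a median of -0.03 (0.08 under TMM, 0.23 with no floor) over 8 genes, of which only the ATPase gene Ruvbl1 was past 2-fold, at 0.447 (0.320 to 0.626), and Nolc1, the nucleolar chaperone of snoRNPs, stood at 1.28 (1.04 to 1.59). Pih1d1 stood at 0.514 (0.344 to 0.774) and Rpap3, which works in the same chaperone complex, at 0.801 (0.608 to 1.06).

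For Rn45s, RNA polymerase I subunits and their factors had a median of -0.09 (0.03 under TMM, 0.04 at a floor of 20 CPM) over 21 genes, with 4 higher, 5 lower and 12 within 2-fold. The subunit genes Polr1d (1.05, 0.894 to 1.23) and Polr2k (1.01, 0.872 to 1.17) held 1 within counting error. A further subunit gene, Twistnb, stood at 0.619 (0.515 to 0.746), from 74.7 and 120.7 CPM. The topoisomerase gene Top1 stood at 1.51 (1.38 to 1.66), and Ttf1, which ends transcription of the ribosomal RNA genes, was lower at 59.8 against 127 CPM, a ratio of 0.470 (0.389 to 0.570). Ribosomal RNA processing factors had a median of 0.08 (-0.11 at a floor of 20 CPM) over 32 genes, with 2 higher and 5 lower. The abundant nucleolar genes Ncl (1433 and 1205 CPM, ratio 1.19, 1.13 to 1.25) and Npm1 (734 and 688 CPM, 1.07, 0.995 to 1.15) stood above 1, and the helicase gene Ddx21 at 0.824 (0.731 to 0.929) and Emg1 at 0.857 (0.736 to 1.0001) below it. Mphosph10 was higher at 3.34 (2.51 to 4.51), while Nop14 at 0.333, Utp6 at 0.267, Wdr43 at 0.460 and the RNA acetyltransferase gene Nat10 at 0.483 were lower.

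For Neat1, genes of paraspeckle proteins had a median of -0.20 over 15 genes, 13 of them below 0. Sfpq, which binds and stabilises Neat1, stood at 0.748 (0.704 to 0.795), from 762 and 1018 CPM. Hnrnph1 stood at 0.547 (0.507 to 0.590), Tardbp at 0.610 (0.548 to 0.679) and Matr3 at 0.858. Pspc1 was higher at 2.09 (1.38 to 3.27) and Rbm14 lower at 0.470 (0.333 to 0.665). For Malat1, genes of nuclear speckle proteins were all within 2-fold, with a median of -0.13 over 18 genes. Most of them had a mean of 100 CPM or more, where few of all genes were past 2-fold. That share was 5.17% from 100 to under 1000 CPM and 3.08% from 1000 CPM up. Son stood at 0.912, Sf3b1 at 0.899, Srsf3 at 0.751 and Srsf5 at 0.770. Genes of the RNase P proteins and other factors of the Malat1 and Neat1 ends had a median of -0.44 over 8 genes. Mettl16, which binds the Malat1 triple helix, was lower at 0.469 (0.312 to 0.709), on 56 and 46 counts. Pop1 had 9 counts against 23, while of the other RNase P protein genes Rpp21 stood at 1.14 (0.866 to 1.52), Rpp30 at 0.800 (0.573 to 1.13) and Pop4 at 0.623 (0.470 to 0.829).

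Factors of nonsense-mediated decay, which degrades the spliced hosts, had a median of -0.02 (0.10 under TMM) over 16 genes, with 4 higher and 0 lower. The kinase gene Smg1 stood at 2.14 (1.83 to 2.51), from 258 and 121 CPM. The decapping enzyme gene Dcp2 was higher at 4.65 (2.79 to 8.30), on 193 and 16 counts, and Upf3a and Magohb, with 12 counts and 1 count in the PBS library, were the others. Upf2 stood at 0.786 and Upf3b at 0.725, and Magoh, of the exon junction complex, at 1.19 (1.01 to 1.39). Of 32 other long noncoding RNAs listed, 20 were in the table and 7 passed the floor, with a median of -0.33 (0.06 with no floor). Kcnq1ot1 stood at 1.15 (1.04 to 1.27) and 2900097C17Rik, the mouse Norad, at 1.04 (0.914 to 1.19). Gm14005 stood at 0.834 (0.659 to 1.06) and 1700020I14Rik at 0.795 (0.622 to 1.02), while Tug1 was lower at 34.6 against 72.4 CPM, a ratio of 0.477 (0.370 to 0.616), as were the thinly counted Pvt1 and Dleu2.

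**Figure D5:**
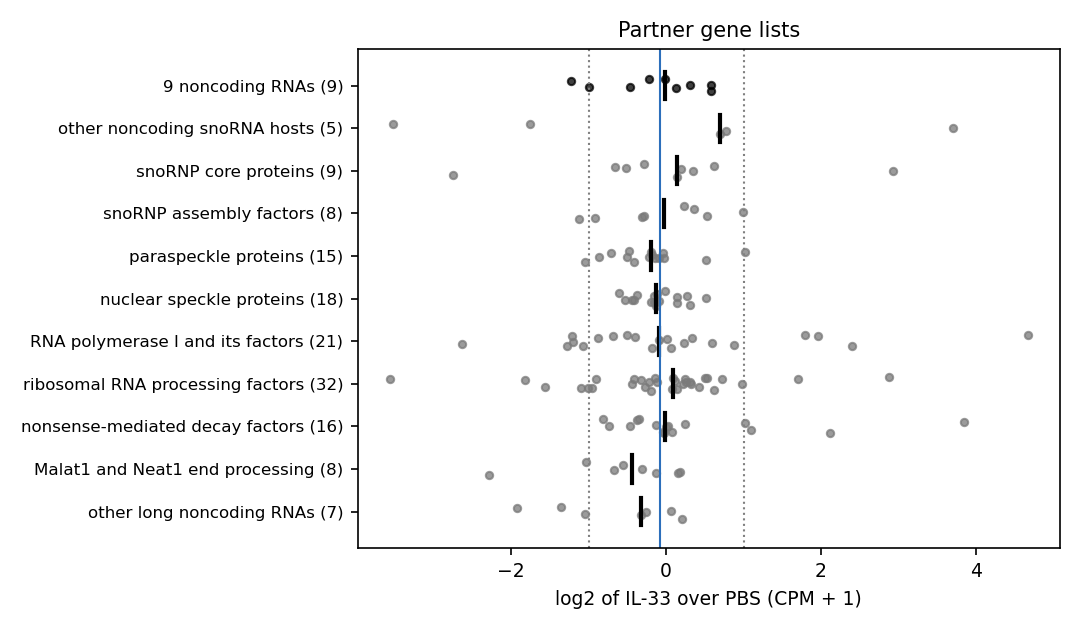
Log2 difference (IL-33 over PBS, CPM + 1) of each gene over the floor (points) in the 9 noncoding RNAs and in 10 partner lists, with the number of genes in brackets, the list median as a black bar, the median of all genes as a blue line and 2-fold as dotted lines. Speckle protein genes all lie within 2-fold, most of them at levels where few of all genes are past it. Polymerase I and ribosomal RNA processing genes spread to both sides.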

How the data were processed

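Poly(A) RNA of 2 Treg libraries was converted to cDNA, amplified, fragmented with a transposon and sequenced as paired 25 bp reads, per the labels' protocols. The authors deposited raw counts per gene symbol. TopHat2 2.0.10, Cufflinks 2.2.1 and mm10 are named in the submitters' processing notes, without their roles; for the counting program, annotation, strand setting and reads from repeated genes such as ribosomal RNA, the choice is not given in the sources used here. Per the file headers, each column names 1 library, and 0 columns and 0 rows were left out.

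CPM was computed from library totals. Genes reaching 5 CPM in either library were compared on log2(CPM + 1) and called at 2-fold. CPM ratios carry the exact conditional (Clopper-Pearson) 95% interval, levels an exact Poisson interval. With 1 library per group no test was possible. The 9 genes and all lists were chosen with earlier results of these data known. Named are the 9 genes, the 4 genes of each list with the highest mean CPM, those past 2-fold whose mean reached 20 CPM, and genes within 1 kb on the opposite strand or overlapping. Others were named after their values were seen, as were the snoRNA and histone rows and the ranges of level. Of 16 comparisons of members per Malat1 or Gas5 count, with unadjusted intervals, only some are given. Positions and lengths are from GENCODE M21 (GRCm38, the assembly of mm10), in which 20937 symbols matched by name, 1945 by a RefSeq synonym and 455 not at all. Alternatives were 3 other scalings, 2 pseudocounts, 2 floors, a lower fold and other lengths. Tools were Python 3.11.15, numpy 2.4.6, pandas 2.3.3, scipy 1.17.1, matplotlib 3.10.9, R 4.3.3 and edgeR 4.0.16 (TMM factors only). Calls and intervals were tested on simulated Poisson counts, the model that the intervals assume. That simulation held no amplification or between-library variation, so it cannot show how well the intervals serve these libraries.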

Additional observations from a re-analysis of the deposited data

How the results depend on the processing

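The number of members past 2-fold was 1 of 9 (Snhg6) by library totals, and also under TMM scaling, median-ratio scaling, totals without the 9 members and no floor. It was 2 (Snhg5 and Snhg6) with a pseudocount of 0.5 CPM, at a threshold of 1.5-fold and, in an alternative chosen after seeing the data, with no pseudocount. It was 0 with a pseudocount of 5 CPM, and 0 of the 5 members left at a floor of 20 CPM. The share of all genes called also changed with the setting. It was 31.8% by library totals, 31.9% under TMM and under median-ratio scaling, and 33.2% with no floor. At 1.5-fold, 50.9% of all genes were called, with no pseudocount 33.5%, and with a pseudocount of 0.5 CPM 32.7%. With a pseudocount of 5 CPM the share fell to 24.6%, and at a floor of 20 CPM to 21.5%. The median log2 difference over all list genes moved from -0.04 to 0.0892 under TMM and 0.0820 under median-ratio scaling. These scalings also moved the medians of polymerase I genes, assembly factors, nonsense-mediated decay factors and noncoding hosts from below 0 to above it (TMM: 0.03, 0.08, 0.10 and 0.04). With no floor, the medians of assembly factors, noncoding hosts and other long noncoding RNAs lay above 0 (0.23, 0.11 and 0.06). At a floor of 20 CPM the polymerase I median lay above 0 (0.04) and that of ribosomal RNA processing factors lay below it (-0.11). The ratio of Malat1 per kilobase to the next member was 145 (IL-33) and 93.9 (PBS) by longest transcript, and 329 and 264 by the median spliced transcript, a choice made after seeing the data. The share of the other 7 members in the IL-33 library was 0.0259% of all counts and 0.0275% without Malat1 and Rn45s. No paired analysis was possible because each group held 1 library, and for the same reason none could be left out. Depth limits Snhg1, Snhg6, Snhg8 and Snhg12, with 9 to 44 counts in a library.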
